A study of Mus musculus with 18 samples.

Results

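The 9 mRNAs described here encode factors of translation elongation and a few other proteins. They are Eef2, Eef1a1, Eef1b2, Eef1d, Eef1g, Eef1e1, Eef2k, Tpt1 and Pabpc1, listed by name as elongation factor or terminal oligopyrimidine (TOP) mRNAs that are not ribosomal protein mRNAs. All 9 were found among the 51467 genes of the count table, and all 9 were among the 12705 genes that passed the filter on low counts (at least 3 CPM, that is counts scaled to the library total, in at least 3 libraries). The list was chosen from earlier results of these same libraries, in which Eef2 stood among the genes whose high polysome to monosome ratio rose most in the Ddx6 KO. Values from the monosome and high polysome libraries are therefore given for these genes as a description, without a test. Only the low polysome libraries, which take no part in that ratio, were used to test them.

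In translation elongation, eEF1A delivers each aminoacyl-tRNA to the ribosome as a complex with GTP. The eEF1B complex recharges eEF1A with GTP, and eEF2 moves the ribosome forward by one codon. Many mRNAs of this machinery, like those of the ribosomal proteins, begin with a cytosine and a run of pyrimidines directly at the cap, the TOP motif. TOP mRNAs are known to shift between polysomes and a poorly translated pool when the kinase mTORC1 is switched on or off, and LARP1 binds the capped motif.

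The cells were V6.5 mouse embryonic stem cells (ESCs) grown in serum with LIF and 2i, either wild-type (WT) or knocked out for Ddx6 with CRISPR-Cas9 (Ddx6 KO). DDX6 is an RNA helicase that acts in translational repression and mRNA decay. The KO consisted of 2 clones, one with a small insertion and one with a large deletion, both giving a premature stop. Clone 1 supplied KO gradient 1 alone and clone 2 supplied the other 2 KO gradients, so that clone 1 and its gradient cannot be told apart. All cells received cycloheximide at 100 µg/ml for 2 min, and the lysates were separated on sucrose gradients into monosome, low polysome (2 to 4 ribosomes) and high polysome (4 or more) fractions. With 3 gradients per genotype and 3 fractions per gradient this gave 18 libraries in 6 groups of 3. The labels do not state that the 3 WT gradients were separate cultures, so the p-values measure the spread between these samples, part of which may be technical. On the KO side the fit counts 3 gradients from 2 clones as replicates, so the p-values do not stand for the spread between clones.

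Reads came from the 3′ ends of transcripts, so a count needs no division by transcript length. Totals ranged from 2543617 to 11474550 counts per library, and the WT monosome libraries were the shallowest. Ddx6 itself was at 143.4 to 212.5 CPM in the 9 WT libraries, and at 9.675 to 82.69 CPM in the 9 KO libraries, highest in clone 1. All 8 ESC markers were at 3 CPM or more in both genotypes, with a summed level of 2246 to 4202 CPM in WT and 2475 to 3675 CPM in KO libraries. Of 6 fibroblast markers, 1 reached 3 CPM in WT and 2 in KO, with sums of 3.918 to 10.79 and 6.96 to 11.25 CPM and Col3a1 at 0 in every library. The 6 primitive endoderm markers summed to 4.148 to 11.34 CPM in WT and 7.695 to 25.99 CPM in KO. The 4 epiblast-like cell markers, with Fgf5 at 0, summed to 98.3 to 147.9 CPM in WT and 33.83 to 78.52 CPM in KO. The part of these marker differences in the results was not tested. In bulk fractions, fewer cells of a type and less RNA per cell cannot be told apart, and every level is relative to the other mRNAs of its fraction.

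To show which of these mRNAs carry a pyrimidine run near their annotated 5′ end, the transcripts of Gencode M21 (GRCm38) were searched on the sense strand for a C followed by at least 5 bases that are each C or T, starting within the first 100 bases of the 5′ UTR. The longest run of each gene is in capitals, for 7 of the 9 genes.
Eef1a1: tggacgttCTTTTTCgcaacgggtttgccg
Eef1d: gcgggcgCCCTCCCTCTCCTTTgcagtcct
Eef1g: CTCTCTCCTTTCCTCCTCCCTTgtctcctt
Eef1e1: aggccccgCCTCCCTaggagctgggccaga
Eef2k: tcaccgggCTCCTTCTgaacttacacagac
Tpt1: tccgcccgCTCCCCCCTCCCCCCgcgcgcc
Pabpc1: CCCCTTCTCCCCggcggttagtgctgagag

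The windows lie in single 5′ UTR exons at chr9:78481650-78481679 (-, Eef1a1), chr15:75909290-75909319 (-, Eef1d), chr19:8967127-8967156 (+, Eef1g), chr13:38658996-38659025 (-, Eef1e1), chr7:120851204-120851233 (+, Eef2k), chr14:75845335-75845364 (+, Tpt1) and chr15:36608944-36608973 (-, Pabpc1). A run of at least 6 bases was present in all 7 of these genes, but also in 60.7% of the 11773 protein-coding genes tested, so its presence does not set these genes apart. Runs of at least 10 bases were found in 4 of the 7, namely Eef1d, Eef1g, Tpt1 and Pabpc1, against 16.9% of all protein-coding genes and 56.6% of the 76 cytosolic ribosomal protein genes. A run that starts at the first annotated base was found in 2 of the 7, Eef1d (in another annotated transcript than the one shown) and Pabpc1, against 3.19% of all and 27.6% of ribosomal protein genes. The runs shown began at base 87 of the Eef1g transcript, 54 of Eef1a1, 42 of Tpt1 and of Eef1e1, 24 of Eef2k, 8 of Eef1d and 1 of Pabpc1. The 3′ end reads do not show where the transcripts began in these cells, so the runs describe the annotation.

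**Figure D1:**
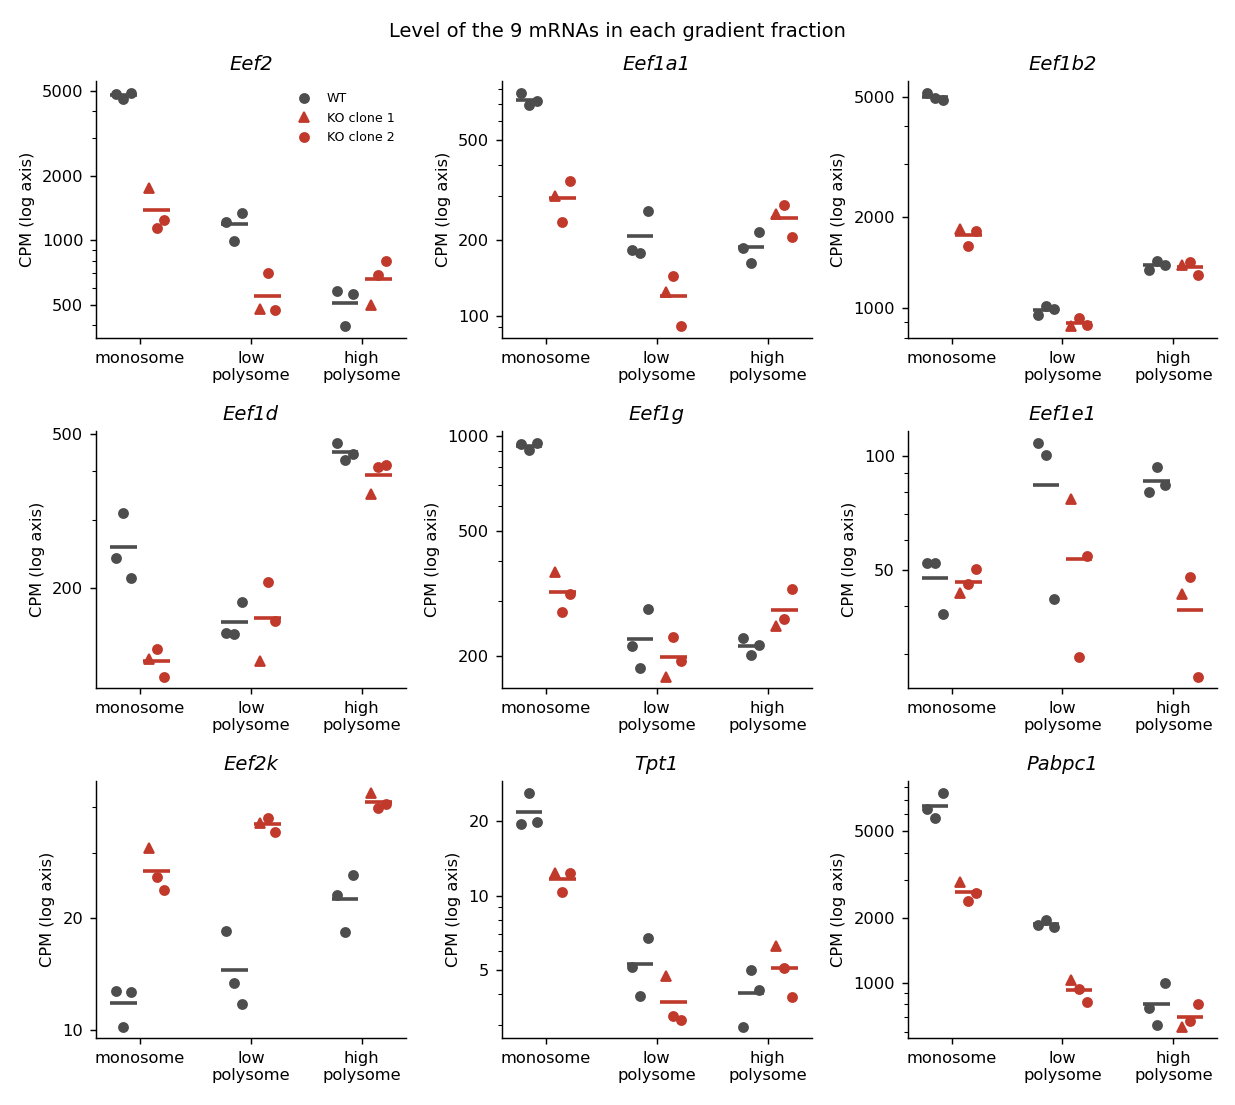
Level of each of the 9 mRNAs in CPM (log axis, TMM-scaled) in libraries of the monosome and of the low and high polysome. Points are the 3 gradients of WT (grey) and Ddx6 KO (red, with clone 1 as a triangle), and bars are group means. In WT, 6 of the 9 mRNAs have their highest level in the monosome, and Eef2k is higher in every KO library than in any WT library of the same fraction.

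The most abundant of the 9 in WT monosomes was Pabpc1, at 6553 ± 883 CPM (SD, n = 3), followed by Eef1b2 at 5001 ± 154 and Eef2 at 4755 ± 169 CPM, and the libraries of the last pair overlapped. Eef1g was at 932.9 ± 27.15, Eef1a1 at 727.4 ± 43.8 and Eef1d at 255.1 ± 51.69 CPM. Eef1e1, Tpt1 and Eef2k were rare, at 47.44 ± 8.072, 21.81 ± 3.652 and 11.87 ± 1.426 CPM. Only uniquely mapped reads were counted. Of the 50-base windows in the last 500 bases of the transcript, 40.4% for Eef1a1 and 30.4% for Tpt1 also stand in transcripts of other genes, against 9.98% for Eef1g, 1.77% for Eef1b2 and 0 for the other 5. These windows are exact matches to annotated transcripts only. Whether shared reads lowered the level of any of the 9 mRNAs was not tested, so comparisons of levels between genes are uncertain. Tpt1 rested on 23 to 112 reads per library.

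The mRNAs of the 9 genes occupied the gradient in 2 ways in WT cells. Pabpc1, Eef2, Eef1g, Eef1a1, Eef1b2 and Tpt1 were far more abundant in the monosome than in the high polysome, while Eef1d, Eef1e1 and Eef2k were more abundant in the high polysome. The high polysome to monosome ratio, the translation level in this study, was used in choosing the list, so these values are a description. Eef2, the translocase, was at 4812.1, 4564.5 and 4888.5 CPM in the WT monosomes of gradients 1 to 3, at 1213, 996 and 1347 CPM in the low polysomes and at 578, 396 and 561 CPM in the high polysomes. Its level was thus lower at each step along the gradient, and the log2(high/mono) ratios were -3.06, -3.53 and -3.12. Only 2.22% of the genes tested had a lower ratio. Pabpc1, the main cytoplasmic poly(A)-binding protein, had ratios of -3.04, -3.17 and -2.90.

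Eef1a1, the carrier of aminoacyl-tRNA, was also depleted from polysomes, with WT ratios of -2.06, -2.08 and -1.73. Of the subunits of eEF1B, the complex that recharges eEF1A, Eef1b2 (ratios -1.95, -1.78 and -1.81) and Eef1g (-2.04, -2.16 and -2.14) lay close to Eef1a1. Eef1d, the other exchange factor subunit, was at the opposite end, with ratios of 0.98, 0.45 and 1.06. Tpt1, the translationally controlled tumour protein, had ratios of -2.54, -2.27 and -2.13 from few reads. Eef1e1, which belongs to the multi-tRNA synthetase complex, had ratios of 0.61, 0.84 and 1.12, and Eef2k, the kinase that inhibits eEF2, had ratios of 0.83, 0.82 and 1.02. The 9 genes had a median WT log2 difference of -1.96 between high polysome and monosome, against -0.02 over all genes tested. At an adjusted p under 0.05 in limma 6 of the 9 were lower and 3 higher in the high polysome, where 32.2% and 28.9% of all genes tested were, and nothing is read from that count.

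The 6 mRNAs that were depleted from WT high polysomes differed in where the difference lay. For Eef1b2, Eef1g, Eef1a1 and Tpt1 it lay between monosome and low polysome, with log2 differences of -2.33 (SE 0.10), -2.06 (0.15), -1.83 (0.18) and -2.06 (0.24). Between low and high polysome they then differed by 0.49 (0.10), -0.06 (0.15), -0.13 (0.18) and -0.37 (0.28). Eef2 and Pabpc1 were lower at both steps, with log2 differences of -2.01 (SE 0.19) and -1.80 (0.15) at the first and -1.22 (0.20) and -1.24 (0.15) at the second. Eef1d was lower in the low polysome than in the monosome (-0.63, SE 0.16) but higher again in the high polysome (1.46, SE 0.16). From monosome to low polysome 7 of the 9 passed the threshold as lower, against 22.8% of all genes tested. From low to high polysome 2 were lower and 3 higher, against 32.6% and 29.5%, and nothing is read from these counts either.

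In the Ddx6 KO the low polysomes held less Eef2, Pabpc1 and Eef1a1 mRNA and more Eef2k mRNA than in WT. The low polysome libraries take no part in the ratio that guided the choice. The list was still chosen with earlier results of these data known, and all libraries share the fit. Eef2 was at 1213, 996 and 1347 CPM in the WT and at 475, 700.4 and 471 CPM in the KO low polysomes. The groups did not overlap, and Eef2 fell 2.18-fold, or by 1.13 on the log2 scale (SE 0.20, adjusted p = 9.48e-05 in limma). Pabpc1 was at 1846, 1958 and 1812 CPM in WT and at 1039, 939 and 816 CPM in KO. It fell 2.02-fold (log2 difference -1.01, SE 0.15, adjusted p = 1.54e-05), again without overlap.

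Eef1a1 was at 183, 178 and 263 CPM in the WT and at 125, 144 and 90.6 CPM in the KO low polysomes, and fell 1.75-fold (log2 difference -0.81, SE 0.18, adjusted p = 0.00126). Every KO library was below every WT library for this gene too. Eef2k, which phosphorylates and so inhibits eEF2, went the other way. It was at 18.5, 13.4 and 11.8 CPM in WT and at 36.1, 37.2 and 34.2 CPM in KO, and rose 2.49-fold (log2 difference 1.31, SE 0.17, adjusted p = 3.58e-06). The 3 KO libraries of Eef2k lay close together, and clone 1 did not stand apart.

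Of the 9 genes, 3 thus were lower and 1 was higher in KO low polysomes, where 24.3% of all genes tested were lower and 23.4% higher. The other 5 did not pass. The log2 differences were -0.15 (SE 0.10, adjusted p = 0.214) for Eef1b2, 0.01 (SE 0.16, adjusted p = 0.947) for Eef1d and -0.18 (SE 0.15, adjusted p = 0.338) for Eef1g, all from limma. Eef1b2 was at 953 to 1022 CPM in WT and 872 to 932 CPM in KO, so the libraries did not overlap although the difference was small. Tpt1 had a log2 difference of -0.52 (SE 0.28, adjusted p = 0.136). That of Eef1e1 was -0.62 (SE 0.31, adjusted p = 0.103), and the Eef1e1 libraries were spread widely, at 108, 100.5 and 41.9 CPM in WT and 76.8, 29.3 and 54.2 CPM in KO. Without WT gradient 3 its log2 difference was -1.07 (adjusted p = 0.00434), and without KO gradient 2 it was -0.26 (adjusted p = 0.509).

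**Figure D2:**
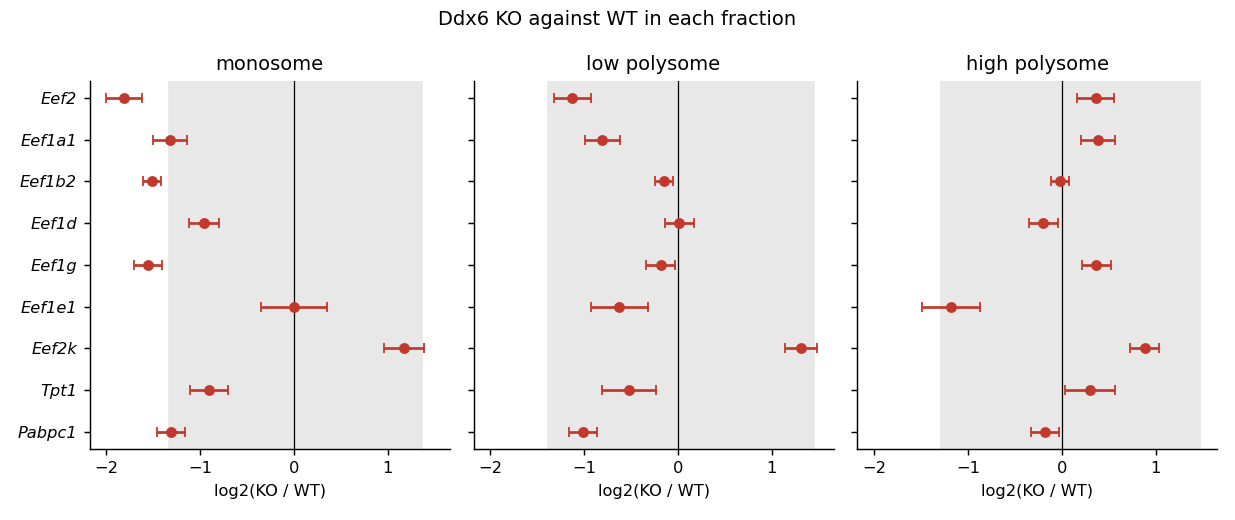
Log2 difference between Ddx6 KO and WT for each of the 9 mRNAs in the 3 fractions, from limma, with its SE as the bar (3 libraries per group). The grey band runs from the 5th to the 95th percentile of all 12705 genes tested. Most of the 9 are low in KO monosomes and near 0 in high polysomes, while Eef2k is high in all 3 fractions.

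In the monosome, whose libraries entered the choice of the list, 7 of the 9 mRNAs were at lower levels in the KO. The values are a description. Eef2 was at 1752, 1139 and 1248 CPM in the KO monosomes, 3.51-fold below WT (log2 difference -1.81, SE 0.19). Clone 1 had the highest of these values, still well below the lowest WT library. Eef1g was at 943, 902 and 953 CPM in WT and 369, 275.7 and 315 CPM in KO monosomes (log2 difference -1.55, SE 0.15).

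Eef1b2 was at 5172.5, 4954 and 4876 CPM in WT and 1836, 1610.2 and 1806 CPM in KO monosomes (-1.52, SE 0.10). Its libraries were tightly spread around both means. Eef1a1 was at 775, 689.5 and 717 CPM in WT and 301, 236 and 345.5 CPM in KO (-1.32, SE 0.18), and Pabpc1 was at 6358, 5783 and 7517 CPM in WT and 2923, 2395 and 2598 CPM in KO (-1.31, SE 0.15). Eef1d (-0.96, SE 0.16) and Tpt1 (-0.91, SE 0.21) were lower by a smaller amount, also without overlap between the genotypes. Eef1e1 was at 0.00 (SE 0.35), with overlapping libraries.

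Eef2k was at 12.7, 10.2 and 12.6 CPM in WT and 30.9, 25.9 and 23.9 CPM in KO monosomes (log2 difference 1.18, SE 0.21). At the threshold used, 7 of the 9 were lower and 1 higher in KO monosomes, where 20.1% and 18.6% of all genes tested were, and nothing is read from this count. The median of the 9 was -1.31, against -0.03 over all genes tested.

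In the high polysome the log2 differences of the same 7 mRNAs lay between -0.20 and 0.39. Eef2 was at 578, 396 and 561 CPM in WT and 497, 685 and 796.5 CPM in KO, where clone 1 lay inside the WT range and both clone 2 gradients above it (log2 difference 0.36, SE 0.20). Eef1g was at 228.5, 202 and 216 CPM in WT and 249, 263 and 327 CPM in KO high polysomes (0.37, SE 0.15), all KO libraries above all WT libraries. Eef1a1 (0.39, SE 0.18), Tpt1 (0.30, SE 0.27), Eef1b2 (-0.02, SE 0.10), Eef1d (-0.20, SE 0.15) and Pabpc1 (-0.18, SE 0.15) followed.

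Eef1e1 and Eef2k moved differently there. Eef1e1 was at 80.0, 93.4 and 83.5 CPM in WT and 43.2, 47.8 and 26.1 CPM in KO high polysomes (log2 difference -1.18, SE 0.31). Eef2k was at 23.1, 18.4 and 26.2 CPM in WT and 43.5, 39.6 and 40.7 CPM in KO (0.88, SE 0.15). With 1 of the 9 lower and 1 higher past the threshold, against 21.1% and 25.3% of all genes tested, nothing is read from the count. The median of the 9 was 0.30, against -0.01 over all genes tested, but 0.058 without WT gradient 1, 0.179 without WT gradient 2, 0.146 without KO gradient 1 and 0.190 without KO gradient 3. Over the mean of the 3 fractions, Eef2k was at 1.12 (SE 0.11) and the other 8 lay between -0.86 for Eef2 and -0.38 for Tpt1.

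**Figure D3:**
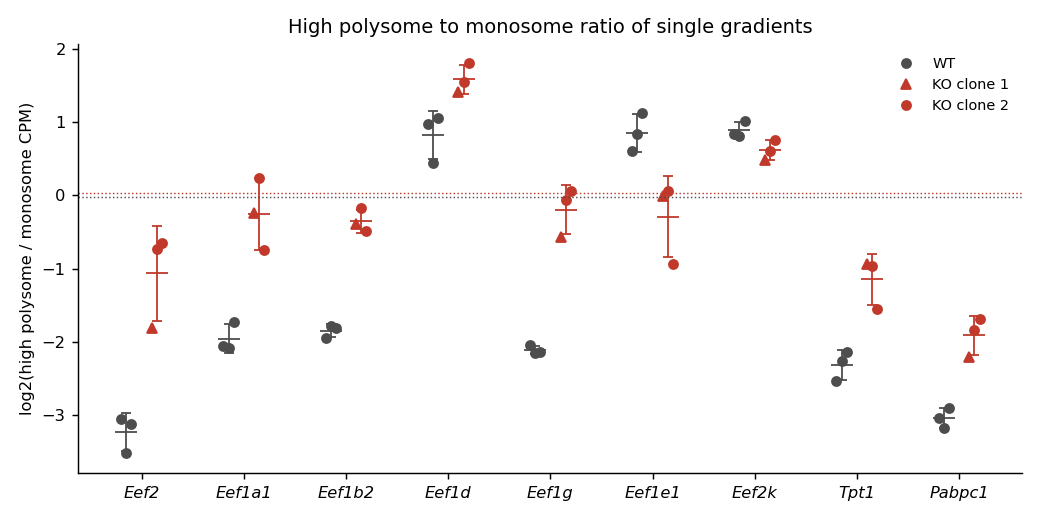
Log2 ratio of high polysome to monosome CPM (pseudocount 0.5 CPM) of each mRNA in single gradients, WT in grey and Ddx6 KO in red, with clone 1 as a triangle. Bars are mean ± SD of 3 gradients, and the dotted lines are the medians of all genes tested. The WT points of Eef2 sit between -3.53 and -3.06 and its KO points between -1.82 and -0.65, while those of Eef2k sit between 0.49 and 1.02 in both genotypes.

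The high polysome to monosome ratio, the value that guided the choice of the list, came out higher in the KO for 7 of the 9 mRNAs. Given as a description, the log2(high/mono) ratios of Eef2 were -1.82, -0.73 and -0.65 in KO gradients 1 to 3, where clone 1 was the nearest to WT, and the KO effect was 2.17 (SE 0.28). That effect ranked 33 from the highest of 12705 genes. Eef1g had KO ratios of -0.57, -0.07 and 0.06 (KO effect 1.92, SE 0.21, rank 63), and Eef1a1 had -0.25, 0.23 and -0.74 (KO effect 1.71, SE 0.26, rank 114). Their mean KO ratios were -0.19 and -0.25, where the median of all genes tested was 0.03.

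Eef1b2 had KO ratios of -0.40, -0.18 and -0.49 (KO effect 1.49, SE 0.14), Tpt1 had -0.93, -0.96 and -1.55 (1.21, SE 0.34) and Pabpc1 had -2.21, -1.83 and -1.69 (1.13, SE 0.21). Pabpc1 had the lowest mean KO ratio of the 9, a place that Eef2 held in WT. Eef1d, already polysomal in WT, had KO ratios of 1.41, 1.55 and 1.80 (KO effect 0.76, SE 0.22). Eef1e1 had 0.00, 0.06 and -0.93 (KO effect -1.18, SE 0.47) and Eef2k had 0.49, 0.60 and 0.76 (KO effect -0.29, SE 0.26).

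The pattern differed among these mRNAs when the low polysome was used in place of 1 of the fractions, also as a description. For Eef1b2 and Eef1d the KO effect lay between monosome and low polysome, at 1.37 (SE 0.14) and 0.97 (SE 0.22). Their KO effects between low and high polysome were 0.13 (SE 0.14) and -0.21 (SE 0.22). For Eef1g the larger part lay between monosome and low polysome, at 1.37 (SE 0.22), against 0.55 (SE 0.22) between low and high polysome. For Eef2, Eef1a1 and Pabpc1 the larger part lay between low and high polysome, at 1.49 (SE 0.28), 1.19 (SE 0.26) and 0.83 (SE 0.21), against 0.68 (SE 0.28), 0.52 (SE 0.26) and 0.29 (SE 0.21) between monosome and low polysome. The latter values moved with single gradients. Without KO gradient 2 that of Eef2 was 0.371 and that of Eef1a1 0.222, and without WT gradient 3 that of Pabpc1 was 0.165. Without KO gradient 3 that of Eef1a1 was 0.807, and without WT gradient 2 that of Pabpc1 was 0.408. Without KO gradient 1, from clone 1, that of Eef2 was 0.957. The split for Eef2 was not alike in single gradients. Its log2(low/mono) ratios were -1.881, -0.701 and -1.406 in KO gradients 1 to 3, and -1.988, -2.196 and -1.859 in WT. Its log2(high/low) ratios were 0.065, -0.032 and 0.759 in KO, and -1.068, -1.331 and -1.263 in WT. Tpt1 had KO effects of 0.38 between monosome and low polysome and 0.82 between low and high polysome, but the former was 0.059 without WT gradient 2 and 0.655 without WT gradient 3, and the latter was 0.029 with all libraries thinned to equal depth.

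For the KO effect on high polysome over monosome 7 of the 9 passed the threshold as higher, where 10.7% of all genes tested did, and nothing is read from this count. The split of calls over all genes moved with the scaling. Of the calls, 60.1% were higher with TMM, 51% with DESeq2 size factors and 40.3% with library size alone, which shifted the median of all genes from 0.02 to -0.10.

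Other mRNAs of the same machinery were followed through lists that were likewise written with earlier results of these data known. For the other TOP mRNAs and the ribosomal protein mRNAs, values from monosomes and high polysomes are a description too, and nothing is read from their counts. The p-values printed for genes of the remaining lists carry the limit that those lists were not written blind to the data. Among 15 other TOP mRNAs (initiation factor subunits, Npm1, Rack1, Vim and others), 12 were lower and 1 was higher in KO monosomes at the threshold used, where 20.1% and 18.6% of all genes tested were, and the median log2 difference was -1.13. Eif4b, a helicase cofactor of initiation, had a log2 difference of -1.58 (SE 0.11) and Vim, an intermediate filament gene, one of -1.44 (SE 0.16). In low polysomes 4 of these 15 were lower and 1 was higher (median -0.20), where 24.3% of all genes tested were lower and 23.4% higher. There Eif4b (-0.90, SE 0.11, adjusted p = 1.94e-06) and Npm1 (-0.63, SE 0.15, adjusted p = 0.00137) fell, and Cnbp, a zinc finger nucleic acid binding protein, rose (0.75, SE 0.15, adjusted p = 2.91e-04). In high polysomes 3 were lower (median -0.09), against 21.1% of all genes tested, and Npm1 was at -0.85 (SE 0.14).

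The KO effect on high polysome over monosome, again as a description, was positive in 13 of these 15 TOP mRNAs and in 6524 of the 12705 genes tested. Its median was 0.80, with a range from -1.44 to 1.65, against a median of 0.02 over all genes tested. At the threshold used 8 of the 15 were higher and 1 was lower, where 1357 and 901 of all genes tested were. Nothing is read from these counts. Eif4b was at 1.51 (SE 0.16), and the initiation factor 3 subunits Eif3f and Eif3l were at 1.42 (SE 0.17) and 1.41 (SE 0.17). Of 76 cytosolic ribosomal protein genes tested, 68 were lower in KO monosomes (median -1.02), 48 in low polysomes (median -0.59) and 38 in high polysomes (median -0.48), where 20.1%, 24.3% and 21.1% of all genes tested were. With the trend on coding length removed, 36 were lower in low polysomes and 13 in high polysomes.

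**Figure D4:**
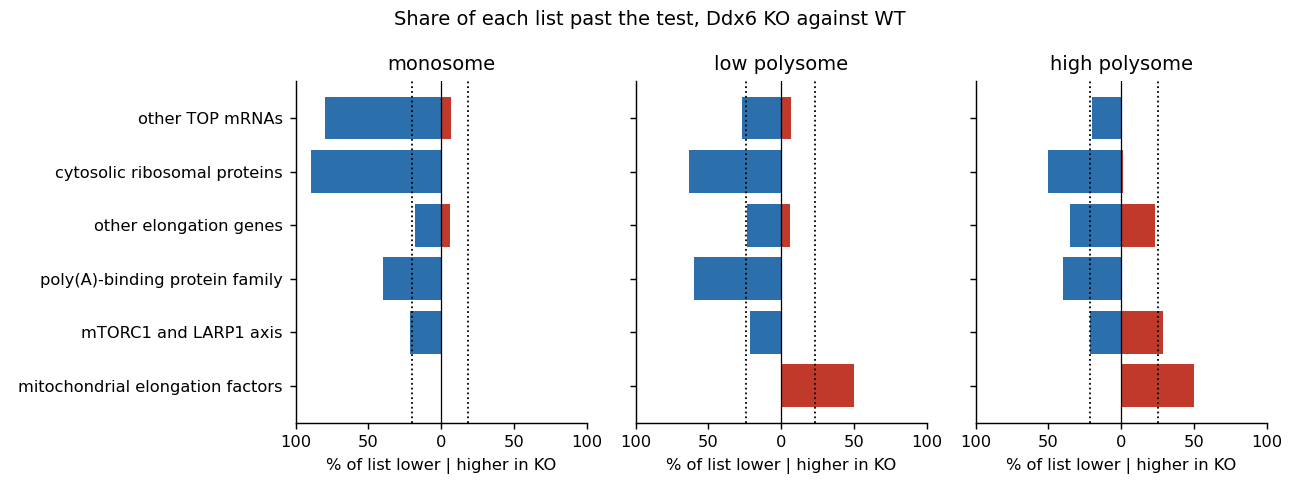
Percentage of the tested genes of each list that were lower (blue, to the left) or higher (red, to the right) in Ddx6 KO than in WT at an adjusted p under 0.05 in limma, by fraction. Dotted lines are the percentages over all 12705 genes tested. For other TOP mRNAs and ribosomal proteins the monosome and high polysome bars are a description, and nothing is read from them. Other elongation genes stay near or below the dotted lines in monosome and low polysome.

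The 17 tested genes of other elongation functions included eIF5A, selenocysteine insertion, enzymes that modify eEF1A and eEF2, and Vars, the valyl-tRNA synthetase. Of these 17, 4 were lower and 1 higher in low polysomes (median -0.11), against 24.3% and 23.4% of all genes tested. In monosomes 3 were lower and 1 higher (median -0.03), against 20.1% and 18.6%, and in high polysomes 6 were lower and 4 higher (median -0.32), against 21.1% and 25.3%. The counts of lower genes in low polysomes and monosomes are near those shares. With the trend on coding length removed, 1 was lower in high polysomes, and without KO gradient 3, 2 were lower in low polysomes. Eefsec, the selenocysteine elongation factor, rose in low polysomes (1.09, SE 0.19, adjusted p = 1.10e-04) and in high polysomes (0.99, SE 0.15, adjusted p = 3.09e-05). Eef2kmt, a methyltransferase for eEF2, fell in monosomes (-0.89, SE 0.14, adjusted p = 4.76e-05), and Eif5a rose there (0.76, SE 0.12, adjusted p = 7.41e-05). Mettl13, which methylates eEF1A, rose in high polysomes (1.17, SE 0.16, adjusted p = 5.74e-06). Dph3 (-0.74, SE 0.16, adjusted p = 6.18e-04) and Vars (-0.62, SE 0.20, adjusted p = 0.0141) fell in low polysomes. Dnajc24 fell in high polysomes (-0.94, SE 0.27, adjusted p = 0.00713, all from limma). Dph3 and Dnajc24 no longer passed with the trend on coding length removed. Vars did not pass without WT gradient 3, without KO gradient 3 or at equal depth. Of the 4 mitochondrial elongation factors, Gfm1 and Gfm2 rose in low polysomes (1.08, SE 0.18, adjusted p = 4.86e-05, and 0.64, SE 0.16, adjusted p = 0.00296), where 23.4% of all genes tested were higher.

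Of the poly(A)-binding protein family beside Pabpc1, Pabpc4, a close cytoplasmic relative, was lower in the same fractions. Its log2 difference between KO and WT was -0.86 in low polysomes (SE 0.15, adjusted p = 6.58e-05 in limma). Given as a description, it was -1.504 in monosomes (SE 0.14). In WT, Pabpc4 was also depleted from high polysomes against the monosome (-2.63, SE 0.14), again as a description. In low polysomes 3 of the 5 tested genes of this family were lower, where 24.3% of all genes tested were, but only 1 without KO gradient 2, when Pabpn1 and Paip1 no longer passed. Paip1 and Paip2, which bind poly(A)-binding protein, fell in high polysomes (-0.69, SE 0.14, adjusted p = 4.32e-04, and -0.69, SE 0.16, adjusted p = 0.00138), where Paip2 no longer passed once the trend on coding length was removed.

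Of the 14 genes of the mTORC1 and LARP1 axis, 3 were lower in KO low polysomes, which is near the 24.3% of all genes tested. They were Akt1s1 (-1.09, SE 0.23, adjusted p = 7.28e-04) and the eIF4E-binding repressors Eif4ebp1 (-0.96, SE 0.13, adjusted p = 5.51e-06) and Eif4ebp2 (-0.82, SE 0.18, adjusted p = 8.04e-04). In monosomes 3 were lower, against 20.1% of all genes tested. In high polysomes 3 were lower (1 with the trend on coding length removed and 5 at equal depth) and 4 higher, against 21.1% and 25.3%, among them Tsc1 (0.99, SE 0.14, adjusted p = 1.08e-05) and Rptor (0.77, SE 0.18, adjusted p = 0.00145). Eif4ebp2 was lower in all 3 fractions. The medians were -0.17, -0.17 and 0.07 in monosome, low and high polysome.

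Likeness over the 18 libraries was measured by Pearson's r of log2 CPM, as a description, since the points share libraries, fractions and depth. Eef2 was most like Pabpc4 (r = 0.984), Zfp773 (0.979), Akap8l (0.969), Cluh (0.962) and the ribosomal protein gene Rpsa (0.958) among genes with a mean of at least 10 CPM. Pabpc1 was most like Tnni3 (0.986), Cnpy1 (0.980), Tsix (0.980), Pabpc4 (0.976) and Zfp773 (0.976). Eef1a1 was most like Trim26 (0.967), Epas1 (0.950), Eif4b (0.948), Eef1b2 (0.935) and Eef1g (0.934), and Eef2k was most like Anxa4 (0.980), Ece1 (0.962), Selenon (0.960), Capg (0.955) and Lrrc8c (0.954).

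Within the 9, Eef2 and Pabpc1 were nearest to each other (r = 0.958), as were Eef1b2 and Eef1g (0.953). Eef1a1 was nearest to Eef1b2 (0.935), and Tpt1 was nearest to Eef1a1 (0.900). Eef1d, Eef1e1 and Eef2k stood apart, with no r above 0.146, -0.010 and 0.103 to any of the others. Eef2k ran most opposite to Pabpc1 (r = -0.716) and to Eef2 (r = -0.695).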

How the data were processed

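Reads were QuantSeq 3′ FWD tags. The authors trimmed them with cutadapt 1.14, aligned them with STAR 2.5.3a to mm10, kept unique alignments and made the deposited counts per gene with featureCounts 1.5.3, by strand, on Gencode M14 basic without rRNA and with ERCC spike-ins. Without molecular identifiers in the sources, PCR copies stay in the counts. Unique mapping removes reads shared with pseudogenes.

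The table held 51467 genes and 92 spike-ins in 18 libraries. Spike-ins, with 28 to 169 counts per library, were left out. Genes with at least 3 CPM in at least 3 libraries were kept (12705), scaled by TMM (edgeR 4.0.16) and fitted with voom and limma 3.58.1 under R 4.3.3. The fit had a mean for each of the 6 groups and used every library. Tests were two-sided, with Benjamini-Hochberg adjustment over all genes at 0.05. The fit was also run on simulated counts that held no gradient or clone structure, so no support for the p-values is drawn from that run. The study's methods give limma and the filter. Ratios of single gradients used a pseudocount of 0.5 CPM. Sequences, symbols and coordinates came from Gencode M21 (GRCm38), and the 5′ ends of 2 of the 9 genes are not reported here.

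The genes and lists were chosen with earlier results of these data known. Besides the 9 genes, those named were from each list at most 3 per comparison with the largest change past the threshold, and for 4 genes the 5 most alike. The alternatives tried were edgeR and DESeq2 1.42.0 tests, other scalings, no filter, other samples in the fit, gradients left out, a gradient block, removal of the coding-length trend, equal depth and other pseudocounts.

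Fractions of 1 gradient came from the same lysate, while gradient numbers do not pair WT with KO. Deviations from the group means correlated between fractions of a gradient at -0.181 to 0.485. No libraries of a group agreed within sampling noise.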

Additional observations from a re-analysis of the deposited data

Results flagged for a closer look

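Eef1g differed between KO and WT in opposite directions in 2 fractions. In the high polysome the log2 difference was 0.37 (SE 0.15) and did not pass the threshold used. The share of all genes tested with such a split is not given here. All 3 KO libraries lay above all 3 WT libraries in the high polysome and below all 3 in the monosome, and the log2 differences between KO and WT in these fractions differed by 1.92. This difference was not tested, because the high polysome to monosome contrast guided the choice of the gene. Groups of 3 libraries were not screened for single libraries that lie far from the rest.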

How the results depend on the processing

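In KO low polysomes Eef2, Pabpc1, Eef1a1 and Eef2k passed in 15 of 15 alternatives, each in the same direction. The number of the 9 genes that were lower was 3 in most and 4 without WT gradient 3, without KO gradient 1 and with all libraries thinned to equal depth, where Eef1e1 passed too. With the replicate block 3 were lower and 1 was higher, and the median of the 9 was -0.526 in low polysomes, -1.309 in monosomes and 0.298 in high polysomes. It changed no other call of the 9 in low polysomes. The gradient block pairs fractions of 1 gradient, since no number pairs WT with KO. At equal depth the median of the 9 in high polysomes was -0.036 in place of 0.299, and the median KO effect on high over low polysome was 0.108 in place of 0.553. With the trend on coding length removed, the median KO effect on high polysome over monosome was 1.645 in place of 1.206. The cause of these moves was not tested. The other medians moved by less than the spread between gradients under every alternative, the pseudocounts of 2 and 0.1 CPM included.

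Over all genes, the number with a KO effect on high polysome over monosome was 1357 higher and 901 lower. It was 429 and 267 with the coding-length trend removed, where only protein-coding genes were kept, and 1744 were lower when only the groups compared were fitted. Without the filter on low counts 27427 genes were tested in place of 12705, so counts of calls are not shares of the same total. Then 3929 genes in place of 2548 were lower in KO monosomes, and 10866 in place of 4086 were lower in WT high polysomes than in monosomes. Tpt1, with 23 to 112 reads per library, had a log2 difference of -0.064 in KO low polysomes at equal depth in place of -0.524.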
